A study of Gossypium barbadense and Gossypium hirsutum with 4 samples.

Results

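Long weakly enriched arm islands are stretches of 5 kb or more, far from the centromere, over which CENH3 chromatin immunoprecipitation (ChIP) gave somewhat more reads than the matched input. They were taken from 2 lists of enriched regions (islands), 1 for Gossypium barbadense (Hai7124 in the labels) and 1 for Gossypium hirsutum (TM_1). An island was a member if it was at least 5 kb long, lay more than 5 Mb from the centre of its chromosome, had a scaled ratio of ChIP to input reads below 4 and held fewer than 60 input reads per kb. The rule found 428 members among the 67639 G. barbadense islands (0.633%) and 3407 among the 88971 of G. hirsutum (3.83%), 3835 of 156610 islands in all.

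The study made 4 libraries from leaf sampled 4 weeks after planting, a CENH3 ChIP library of each species and, as its input, a library to which no antibody had been added. Nuclei were digested with micrococcal nuclease before immunoprecipitation. With 1 library per group there was no replicate error, so no difference below has a test, and intervals are 95% exact binomial (Clopper-Pearson) intervals that cover counting error only. The islands of G. barbadense held 4068080 ChIP reads and 2164077 input reads, and those of G. hirsutum held 6132203 ChIP reads and 3522063 input reads. These are sums over called islands and not library depths, which were not used here. Library, depth and species cannot be told apart in any comparison of the lists.

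CENH3 is the histone H3 variant that takes the place of canonical H3 in the nucleosomes of active centromeres, where it provides the base on which the kinetochore is built. Cultivated allotetraploid cottons carry an A and a D subgenome, so that each A chromosome has a homoeologous D partner. SICER, the caller used here, joins neighbouring windows that hold more ChIP reads than a random background would give, across short gaps, and then compares each finished island with the input. It can thus report a broad and shallow excess as a single long region.

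The scaled ratio was ChIP reads over input reads, with input set to at least 3 reads, times a constant that puts both libraries of a species on a common footing. The authors' own fold implied a constant of 1.639 for G. barbadense and 1.204 for G. hirsutum, and the rule used these rounded to the second decimal. The centre of a chromosome was the midpoint of the 1 Mb window with the most ChIP reads in islands of scaled ratio 8 or more. The members were thus chosen by their ChIP reads, input reads, length and distance, and the ratios, lengths and read densities below describe them and support nothing. G. barbadense had 1357 islands of 5 kb or more, of which 889 lay within 5 Mb of a centre, 5 had a ratio of 4 or more and 35 had dense input, leaving the 428. G. hirsutum had 3950, of which 494 lay near a centre, 11 had a ratio of 4 or more and 38 had dense input. Members were 91.5% of the long islands beyond 5 Mb from the centre in G. barbadense and 98.6% in G. hirsutum.

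At the bounds, exactly 5 kb was the length of 53 G. barbadense and 502 G. hirsutum members, while 74 and 559 weak arm islands were just too short at 4.8 kb. The highest member ratio was 3.48 in G. barbadense, with the next long arm island outside at 4.82, and 3.85 in G. hirsutum, with the next at 4.01. The densest input among members was 50.5 reads per kb in G. barbadense and 53.1 in G. hirsutum, and the nearest long weak islands outside had 62.6 and 67.2. The members nearest to a centre lay 5.001 Mb away in G. barbadense and 5.02 Mb away in G. hirsutum, and the nearest excluded islands lay at 4.99 and 4.98 Mb. Islands lay close on both sides of the length and distance bounds in both lists, and weak arm islands just under the length bound outnumbered those exactly on it.

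The members were long but shallow. In G. barbadense the length ran from 5 to 46.8 kb with a median of 5.9 kb (interquartile range 5.4 to 7 kb), and in G. hirsutum from 5 to 28.8 kb with a median of 5.8 kb (5.2 to 6.8 kb). Lengths of 10 kb or more were reached by 36 members in G. barbadense (8.41%) and 108 in G. hirsutum (3.17%), and 20 kb by 3 and 4. A typical member thus held many small windows joined together, and very few members were longer than a few typical ones.

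Per kb, members of G. barbadense had a median of 24.4 ChIP reads (interquartile range 21.1 to 28.1) and 24.4 input reads (20.2 to 28.7), which is 14.9 input reads after scaling. Members of G. hirsutum had a median of 27.2 ChIP reads per kb (24 to 30.9) and 17.3 input reads (14.8 to 19.8), or 14.4 after scaling. The median scaled ratio was 1.61 in G. barbadense (1.42 to 1.87, lowest 1.14) and 1.88 in G. hirsutum (1.66 to 2.16, lowest 1.11). Summed over all members it was 1.67 in G. barbadense (74903 ChIP and 73392 input reads, interval 1.66 to 1.69) and 1.90 in G. hirsutum (600899 and 379425 reads, 1.89 to 1.91). The scaled input under members was close in the lists, and the ChIP reads per kb were somewhat higher in G. hirsutum. No member had 0 input reads, the lowest count being 56 in G. barbadense and 42 in G. hirsutum, so no ratio of a member rests on a nearly empty input.

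A ratio of 2 was reached by a minority of members, 75 in G. barbadense (17.5%, where 68% of all listed islands did) and 1320 in G. hirsutum (38.7%, where 60.7% did). A false discovery rate of 1e-05 or lower, by the authors' values, was met by 279 members in G. barbadense (65.2%, against 56.7% of all listed islands) and 3098 in G. hirsutum (90.9%, against 70.1%). The authors' own bound of 0.01 had kept 66.8% of the islands they tested in G. barbadense and 89.9% in G. hirsutum. These shares use the contrast that chose the members, and nothing is read from them.

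Among weak arm islands of every length, the ratio was lower in each longer class up to 8 kb, apart from even values around 5 kb, and higher again in longer members. In G. barbadense the median ratio was 2.36 under 1 kb (10643 islands), 1.83 from 2 to under 3 kb (7516) and 1.60 from 4 to under 5 kb (690). It was 1.60 from 5 to under 6 kb (214 members), 1.55 from 6 to under 8 kb (147), 1.72 from 8 to under 10 kb (31), 1.86 from 10 to under 15 kb (29) and 1.88 at 15 kb or more (7). The G. hirsutum median was 2.56 under 1 kb (8724 islands), 1.98 from 2 to under 3 kb (19309) and 1.89 from 4 to under 5 kb (4018). Members there had 1.88 from 5 to under 6 kb (1760), 1.86 from 6 to under 8 kb (1278), 1.93 from 8 to under 10 kb (261), 2.01 from 10 to under 15 kb (96) and 2.57 at 15 kb or more (12). All 12 of these longest G. hirsutum members had a ratio above 2, against 2 of the 7 in G. barbadense. The very longest members were therefore not the weakest ones, in either list. Only islands within the authors' false discovery rate of 0.01 are listed, and an island with few reads needs a higher ratio to meet it. Shorter weak arm islands had a median of 36 ChIP reads in G. barbadense and 54 in G. hirsutum, against 145 and 162 for members. The part of this bound in the lower ratios of longer classes was not tested.

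**Figure D1:**
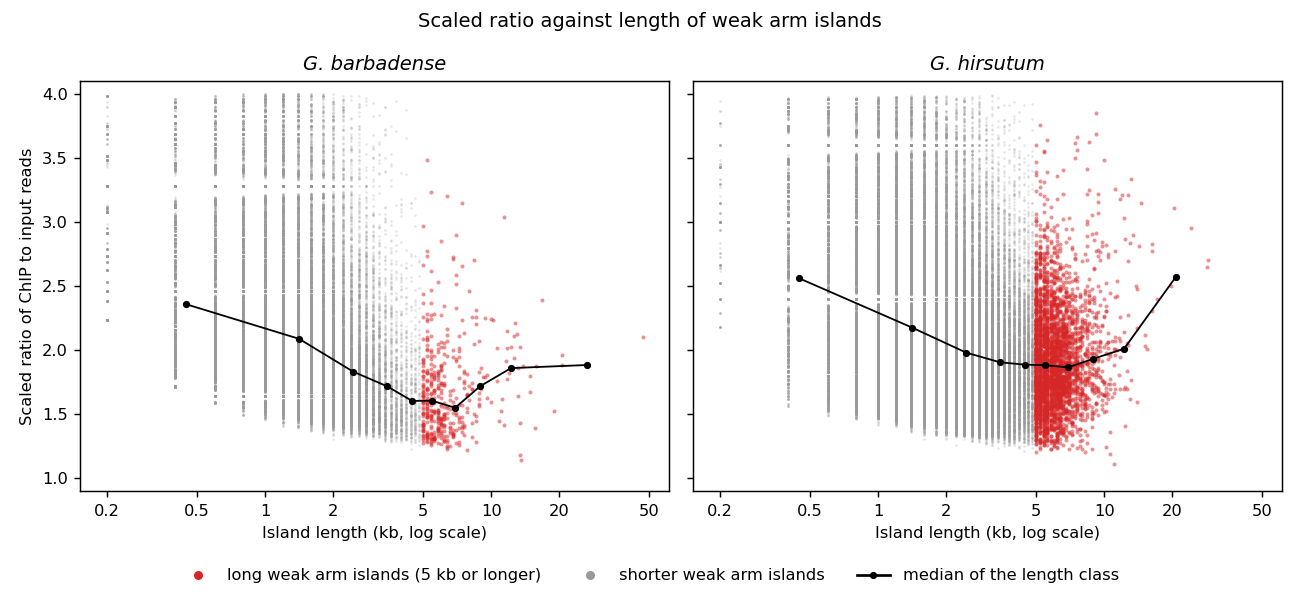
Scaled ratio of ChIP to input reads (y axis) against island length (x axis, kb, log scale) for every weak arm island, G. barbadense on the left and G. hirsutum on the right. Red points are the long weak arm islands, grey points the shorter ones, and black points the median of each length class, which is lowest, at 1.55 in G. barbadense and 1.86 in G. hirsutum from 6 to under 8 kb, and higher again in the longest classes. Only listed islands are drawn, and islands with few reads were listed only at a higher ratio.

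Members made up a small share of what was called on the arms. They covered 2.90 Mb in G. barbadense and 21.4 Mb in G. hirsutum, which was 4.15% and 13.1% of the length of all islands more than 5 Mb from a centre, and 0.151% and 1.08% of the arm sequence itself. Of the ChIP reads in excess of scaled input in arm islands, members held 2.67% in G. barbadense and 10.5% in G. hirsutum. The 39050 shorter weak arm islands of G. barbadense and the 68345 of G. hirsutum held 70.8% and 78.7% of that excess, and arm islands of ratio 4 or more held 19.9% and 7.12%. Most of the weak arm signal in both lists therefore lay in islands shorter than 5 kb.

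The lists differed far more in the density of members than in that of shorter arm islands under the same bounds on ratio and input. Per Mb of arm, G. barbadense had 0.223 members and G. hirsutum 1.72, and the G. hirsutum density was higher on 26 of 26 chromosomes, by a median of 8.38 times (range 1.71 on D05 to 18.3 on D01). For shorter weak arm islands the densities were 20.3 and 34.5 per Mb, and the G. hirsutum density was higher on 26 of 26 chromosomes by a median of 1.62 times (range 1.29 to 1.91). The reads in the lists differ too, as given above. So does the enrichment near the centres. Islands within 5 Mb of a centre had a summed ratio of 7.24 in G. barbadense and 2.64 in G. hirsutum. They held 59.0% and 15.1% of the ChIP reads in excess of scaled input in their list. The part of depth or of this enrichment in the number of long islands was not tested.

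In G. barbadense the members thinned out steadily with distance from the centre. Long weak islands, counted here also inside the 5 Mb that the rule leaves out, numbered 0.881 per Mb within 5 Mb (229 islands), 0.519 from 5 to 10 Mb (135), 0.254 from 10 to 20 Mb (129), 0.170 from 20 to 40 Mb (129) and 0.0888 beyond 40 Mb (35). Shorter weak islands declined much less over the same bands, at 30.1, 25.7, 22.1, 18.9 and 17.2 per Mb. For every 100 shorter weak islands there were 2.93 long ones within 5 Mb and 0.516 beyond 40 Mb.

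In G. hirsutum the density of long weak islands changed much less with distance, being highest from 5 to 10 Mb and falling beyond. Its long weak islands numbered 1.55 per Mb within 5 Mb (402), 1.97 from 5 to 10 Mb (513), 1.85 from 10 to 20 Mb (932), 1.68 from 20 to 40 Mb (1289) and 1.503 beyond 40 Mb (673). For every 100 shorter weak islands there were 5.10 long ones within 5 Mb and 4.85 beyond 40 Mb. The long islands of G. hirsutum thus followed the shorter ones along the chromosome, whereas those of G. barbadense lay closer to the centre than the shorter ones did. The bands pool A and D chromosomes, and the one beyond 40 Mb is mostly A sequence, since D arms are shorter. G. hirsutum had 2.03 members per Mb of A arm and 1.15 per Mb of D arm. The decline with distance within each subgenome was not tested.

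The same contrast held when each arm was divided into equal parts from the 5 Mb bound to the last island. In the innermost 20% of the arm lay 199 of 428 members in G. barbadense (46.5%), against 25.3% of the shorter weak arm islands. In the outer 50% of the arm lay 109 members of G. barbadense (25.5%, interval 21.4 to 29.9%), against 42.3% of the shorter ones (41.8 to 42.7%). In G. hirsutum the innermost 20% held 24% of members and 22.9% of shorter islands, and the outer 50% held 40.7% of members (39 to 42.4%) and 42.8% of shorter islands (42.4 to 43.1%). The outermost 20% of G. hirsutum arms held 10.7% of members and 11.9% of shorter islands. Without the 10 windows richest in members, described below and left out here after the data were seen, the innermost 20% still held 39.2% of G. barbadense members, and 25% of shorter islands.

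**Figure D2:**
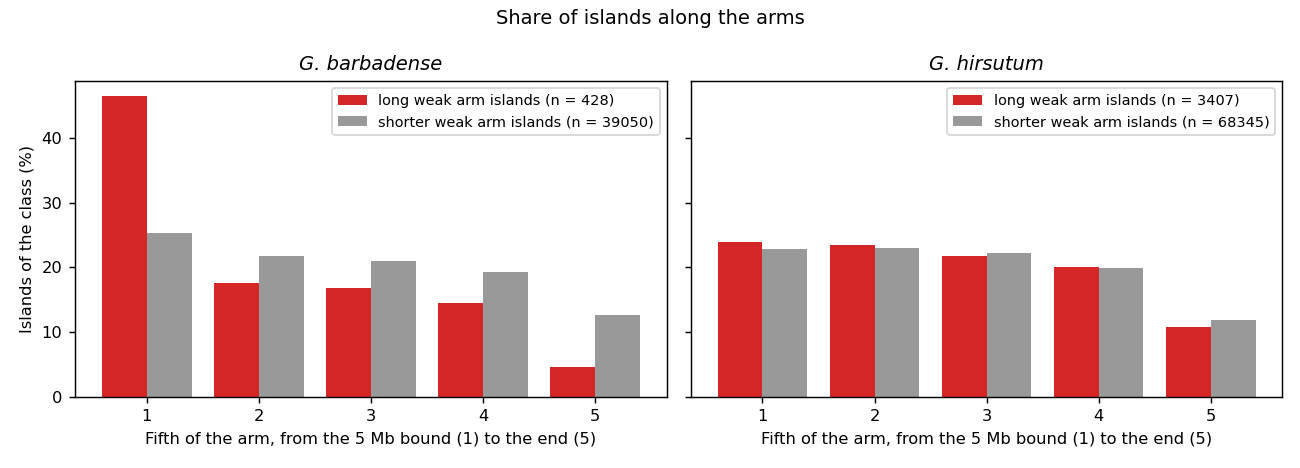
Share of islands (y axis, percent of the class) in 5 equal parts of the arm (x axis, 1 next to the 5 Mb bound and 5 at the chromosome end), for long weak arm islands in red and shorter ones in grey, G. barbadense on the left and G. hirsutum on the right. The first bar is 46.5% for long and 25.3% for shorter islands in G. barbadense, and 24% and 22.9% in G. hirsutum.

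The first and last 5% of the chromosomes held a smaller share of members than of shorter weak arm islands in both lists. In the first 1 Mb alone the share of members was the higher one in both, in G. barbadense on 4 members only. The first and last 5% of the chromosomes held 11 members in G. barbadense (2.57%, interval 1.29 to 4.55%) and 153 in G. hirsutum (4.49%, 3.82 to 5.24%), against 5.80% and 5.36% of the shorter weak arm islands. In G. hirsutum, 61 members lay in the first 1 Mb of a chromosome, beside 500 shorter weak arm islands, and 5 in the last 1 Mb, beside 324. In G. barbadense the first 1 Mb held 4 members beside 291 shorter islands, and the last 1 Mb held 1 beside 218. A chromosome was taken to end with its last island, so the true end may lie farther out.

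Members were denser on A than on D chromosomes in G. hirsutum, while in G. barbadense the pairs were divided. G. hirsutum had 2617 members on A and 790 on D chromosomes, or 2.03 and 1.15 per Mb of arm, an A to D ratio of 1.76 (interval 1.63 to 1.91). The A chromosome was denser in 13 of 13 homoeologous pairs, with ratios from 1.38 in pair 1 to 2.55 in pair 9. Over the 13 chromosomes of a subgenome the density was 2.04 ± 0.225 per Mb on A and 1.14 ± 0.169 on D (SD over chromosomes of 1 library), and the lowest A chromosome, at 1.72, lay above the highest D chromosome, at 1.495. Shorter weak arm islands had an A to D ratio of 1.56 (1.53 to 1.59), also above 1 in 13 of 13 pairs.

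G. barbadense had 288 members on A and 140 on D chromosomes, or 0.232 and 0.205 per Mb, an A to D ratio of 1.13 (interval 0.922 to 1.40, which includes 1). The A chromosome was denser in 8 pairs and the D chromosome in 5, with ratios from 0.496 in pair 5 to 3.44 in pair 9. Densities were 0.241 ± 0.125 per Mb on A and 0.202 ± 0.142 on D, so that single chromosomes of a subgenome spread widely and the subgenomes overlapped. Shorter weak arm islands of the same list had an A to D ratio of 1.29 (1.27 to 1.32), above 1 in 13 of 13 pairs. This ratio depended on the bounds: it was 1.34 (1.17 to 1.53) with a length bound of 4 kb, 0.924 (0.551 to 1.58) with 8 kb, over 67 members, and 1.45 (1.11 to 1.91) beyond 10 Mb from the centre.

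In G. barbadense the densest chromosomes were D05, A09 and A11, with 0.619, 0.550 and 0.367 members per Mb (35, 38 and 39 members). D01, D13 and D02 had the lowest densities, at 0.0750, 0.0976 and 0.102 per Mb (4, 5 and 6 members). In G. hirsutum the densest were A07, A02 and A04, with 2.54, 2.25 and 2.21 per Mb (220, 221 and 172 members), and the sparsest D09, D03 and D11, with 0.858, 1.005 and 1.03 (36, 44 and 63 members). The chromosomes at the top were thus not the same in the lists. Over the 13 A chromosomes the densities of the lists had a Pearson correlation of 0.49, and over the 13 D chromosomes of -0.23. These are descriptions over chromosomes of 1 library each.

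**Figure D3:**
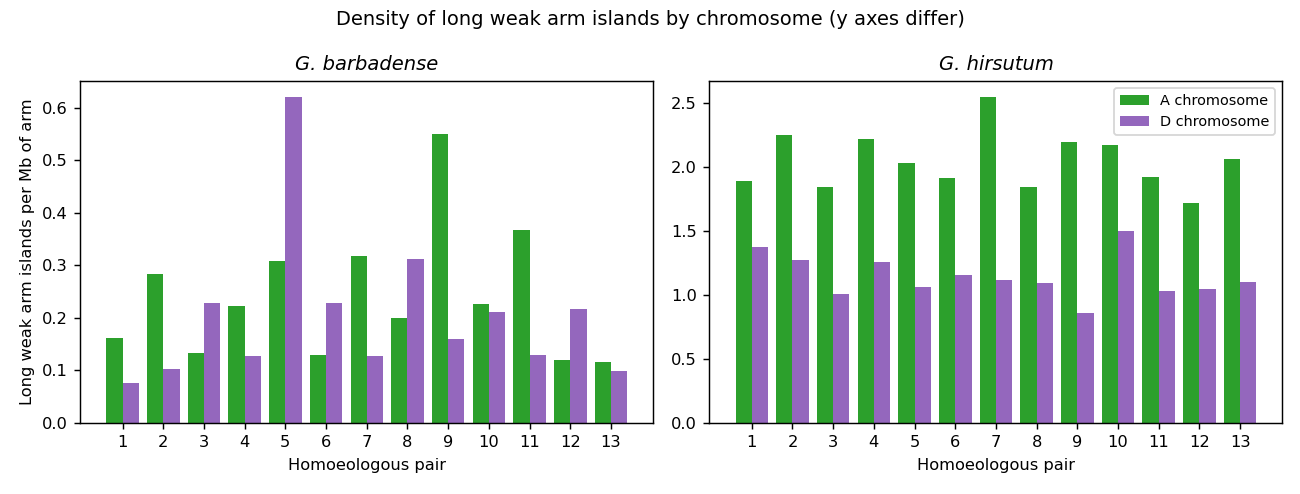
Long weak arm islands per Mb of arm (y axis, which differs between the panels) for each homoeologous pair (x axis), A chromosome in green and D chromosome in purple, G. barbadense on the left and G. hirsutum on the right. In G. hirsutum the A bar is higher in 13 of 13 pairs, and in G. barbadense in 8, with D05 the highest bar at 0.619.

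Members on A and D chromosomes had the same median length and close ratios. In G. barbadense the median length was 5.9 kb on both, and the summed ratio was 1.65 on A (interval 1.63 to 1.68) and 1.71 on D (1.68 to 1.74). The G. hirsutum members had a median length of 5.8 kb on both, and a summed ratio of 1.92 on A chromosomes (1.91 to 1.93), against 1.83 on D chromosomes (1.82 to 1.85). Of the members of 10 kb or more in G. barbadense, 18 lay on A (6.25% of its members) and 18 on D (12.9%). Of those 18 on D, 10 lay in the window from 49 to 50 Mb of D05. In G. hirsutum, 82 members of 10 kb or more lay on A (3.13%) and 26 on D (3.29%).

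Many members had another island close by. The gap to the nearest island of any kind had a median of 3 kb in G. barbadense, against 9.8 kb for shorter weak arm islands, and of 3.6 kb in G. hirsutum, against 5.4 kb. Gaps of at most 1 kb were found for 33.2% of members in G. barbadense and 9.77% of shorter weak arm islands, and for 28.2% and 19.3% in G. hirsutum. Gaps of up to 400 bp had been joined by the caller, and all gaps move with how much was called.

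Some members also lay next to each other. Another member was found within 20 kb for 114 members in G. barbadense (26.6%, interval 22.5 to 31.1%) and 409 in G. hirsutum (12%, 10.9 to 13.1%), although members were far sparser in G. barbadense. For the far more numerous shorter weak arm islands, another of their own class lay that near for 63.5% (G. barbadense) and 81.9% (G. hirsutum). Such shares move with how many islands a class holds, and clustering beyond that was not tested. Members formed 26 runs with gaps of at most 20 kb in G. barbadense and 165 in G. hirsutum. Runs of 5 or more members numbered 10 in G. barbadense, with 78 members, and 9 in G. hirsutum, with 70 members. In G. barbadense most members in runs therefore sat in a few large ones, while in G. hirsutum 133 of the 165 runs were pairs. Without the 10 windows richest in members, described below, 3.82% of G. barbadense members and 9.31% of G. hirsutum members had another within 20 kb. Those windows were picked for their member length, so a lower share without them follows from the choice.

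The 3 longest runs lay on the same 3 chromosomes in both lists. On D05 the run spanned 49207001 to 49439400 in G. barbadense (232 kb, 14 members) and 48424601 to 48640200 in G. hirsutum (216 kb, 11 members). Its members covered 74.3% and 63.7% of the span, and it was centred 74.2% and 76% along the chromosome. On A05 it spanned 66481001 to 66676600 (196 kb, 14 members) and 70306401 to 70468600 (162 kb, 11 members), centred 61.8% and 63.6% along. On A11 it spanned 92293401 to 92464400 (171 kb, 8 members) and 98350201 to 98490800 (141 kb, 8 members), centred 79.5% and 81.2% along. The coordinates are those of the deposited lists, counted from 1, on assemblies not named in the sources used here. The runs were therefore set side by side only by relative position, with no gene or repeat annotation.

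The summed ratio of these runs was higher in G. hirsutum each time, as it was over all members. The D05 run had 1.98 (5586 ChIP and 4617 input reads, interval 1.91 to 2.06) in G. barbadense and 2.76 (4912 and 2136 reads, 2.62 to 2.91) in G. hirsutum. The A05 run had 1.81 (1.73 to 1.90) and 2.42 (2.28 to 2.56), and the A11 run 1.52 (1.44 to 1.61) and 2.60 (2.44 to 2.78). None of them came near the ratio of 8 that was used to find the centres.

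Over whole 1 Mb windows the concentration was strong in G. barbadense. The 10 windows with the most member length, out of 2193, held 114 of 428 members (26.6%), 34.9% of the member length and 29 of the 36 members of 10 kb or more, but 1.30% of the shorter weak arm islands. In G. hirsutum the 10 richest of 2251 windows held 132 of 3407 members (3.87%), 5.50% of the member length and 38 of the 108 members of 10 kb or more. Most other members stood alone in G. barbadense, where 229 of the 276 windows with a member held just 1. The windows were picked for their members and are given as a description, by a rule chosen after the data were seen.

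**Figure D4:**
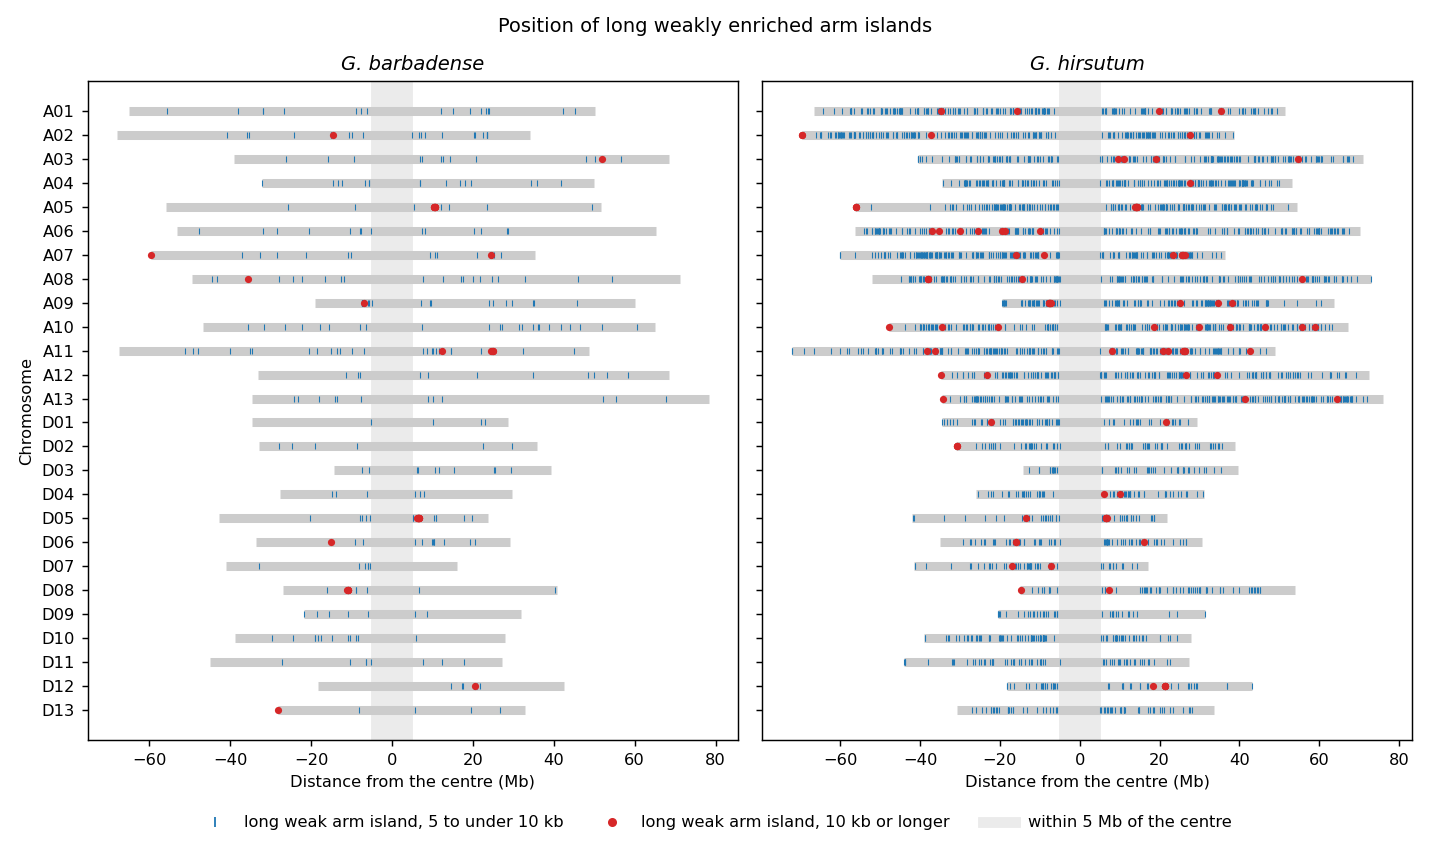
Position of every member (x axis, distance from the chromosome's centre in Mb) on the 26 chromosomes (rows), G. barbadense on the left and G. hirsutum on the right. Grey bars run from the first base to the last island, the pale band covers 5 Mb on either side of the centre, blue ticks are members under 10 kb and red points those of 10 kb or more, of which 29 of 36 in G. barbadense fall in the 10 richest windows.

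Joined where adjacent, the 10 windows formed 8 blocks in each list, and 6 of the 8 lay at like positions in both. A difference of up to 3% of chromosome length was allowed, and the largest was 1.84%. How many blocks would match among windows picked otherwise was not tested. The 6 shared blocks were on A05, A07, A09, A11, D05 and D12. The A05 block held 23 members (203 kb) in G. barbadense and 26 (247 kb) in G. hirsutum. On D05 there were 23 members (257 kb) and 12 (150 kb), and on A09, over 2 windows in each list, 25 (178 kb) and 34 (279 kb). The A11 block held 9 members (85.4 kb) and 13 (119 kb), the A07 block 11 (83.8 kb, 1 window) and 23 (176 kb, 2 windows), and the D12 block 6 (47.2 kb) and 8 (88 kb). Member length was larger in G. hirsutum in 5 of these 6 blocks and larger in G. barbadense on D05. Over the whole lists it was 2.90 Mb in G. barbadense and 21.4 Mb in G. hirsutum. The blocks were picked for high member length in each list, so a smaller difference within them follows from the choice.

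The rule places every block more than 5 Mb from its centre. Those on D05 and A09 lay 6.495 and 7.09 Mb away in G. barbadense and 6.63 and 7.43 Mb away in G. hirsutum. The A05 block lay 10.6 and 14.1 Mb away, and those on D12, A07 and A11 between 20.4 and 24.9 Mb in G. barbadense and between 21.4 and 26.3 Mb in G. hirsutum. Islands of all kinds covered a median of 18.3% of the 10 windows in G. barbadense (range 9.86 to 33.8%) and 24% in G. hirsutum (13.8 to 42.9%), against 3.64% and 8.25% of all arm sequence. Members are among these islands and the windows were picked for member length, so higher coverage there follows in part from the choice.

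Within the 6 shared blocks the ratio of members to that of their shorter neighbours differed between the lists. In the blocks, members had the higher summed ratio in 6 of 6 in G. hirsutum, from 2.25 against 2.25 on A09, a difference well inside the intervals, to 2.72 (2.54 to 2.91) against 2.21 (2.07 to 2.36) on D12. The G. hirsutum intervals overlapped on A09 and D05. In G. barbadense this was so in 1 of 6, D05, at 1.86 (1.80 to 1.91) against 1.83 (1.73 to 1.95), with overlapping intervals. On A11 the G. barbadense members had 1.53 (1.44 to 1.61) and their shorter weak neighbours 1.80 (1.69 to 1.91). This was the only shared block of G. barbadense where the intervals did not overlap. Shorter neighbours hold fewer reads and needed a higher ratio to be listed, which limits this comparison in both lists. Members of all 6 shared blocks had a higher ratio in G. hirsutum than in G. barbadense, again as over all members.

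**Figure D5:**
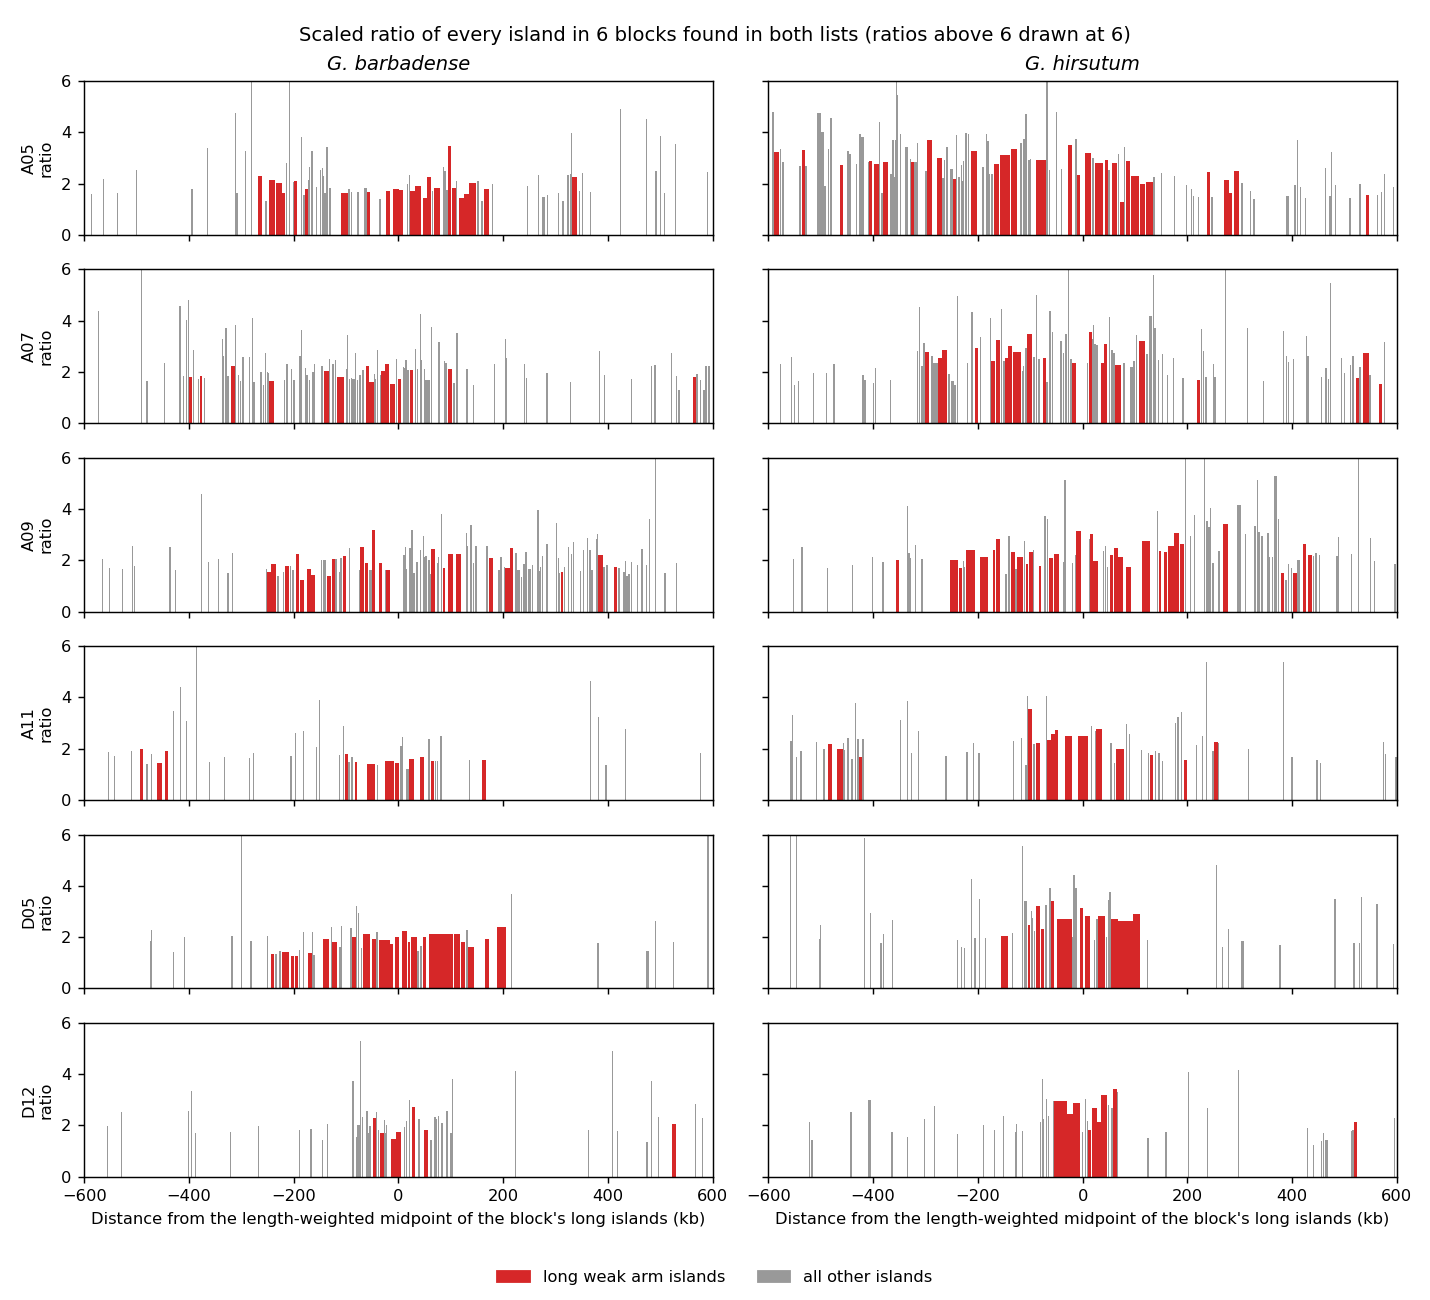
Scaled ratio (y axis, values above 6 drawn at 6) of every island around the length-weighted midpoint of the members (x axis, kb) in the 6 blocks found in both lists, G. barbadense on the left and G. hirsutum on the right. Red bars are long weak arm islands and grey bars all other islands, each as wide as the island; the D05 block holds 23 members in G. barbadense and 12 in G. hirsutum.

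Of the blocks found in 1 list alone, D08 in G. barbadense (15 to 17 Mb, 12 members, 117 kb) was missing from G. hirsutum because of the rule. In the window from 15 to 16 Mb of D08, G. barbadense had 7 members (72 kb, ratio 2.04, interval 1.92 to 2.17), 22.9% along the chromosome. G. hirsutum had 14 long weak islands there (115 kb, ratio 2.89, 2.72 to 3.07), 22.5% along, none of them a member, since its centre on D08 was placed at 14.9 Mb. That centre rested on 129 ChIP reads in strong islands, and the one on D02 on 84, against at least 526 on any other G. hirsutum chromosome and at least 24008 in G. barbadense. On A02 the G. barbadense block (53 to 54 Mb, 5 members, 39.4 kb) faced a window of 31.4 kb with 5 members in G. hirsutum, which ranked 82 there. In G. hirsutum the blocks on A08 (13 to 14 Mb, 7 members, 62 kb) and A05 (38 to 39 Mb, 9 members, 57.8 kb) were among the 10 windows, and in G. barbadense A08 had 3 members (26.2 kb) at the like position, rank 12, and A05 none within 3% of chromosome length.

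Bin by bin along the chromosomes, the counts of members in the lists can be set side by side only roughly, since most bins held few or none in G. barbadense. With each chromosome cut into 20 equal bins, the number of members per bin in the lists had a Pearson correlation of 0.40 and a Spearman correlation of 0.24 over the 260 bins of the A chromosomes, and of 0.077 and 0.26 over the 260 bins of the D chromosomes. For the far more numerous shorter weak arm islands the Spearman correlation was 0.81 on both subgenomes. In G. barbadense 126 of the A bins and 75 of the D bins held any member, and bins share libraries and chromosome structure, so these values are descriptions.

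The longest members lay in the blocks. In G. barbadense they were D05 49353001 to 49399800 (46.8 kb), D05 49257801 to 49278400 (20.6 kb), D08 15875001 to 15895600 (20.6 kb), A11 92369201 to 92388200 (19 kb) and D05 49484401 to 49501200 (16.8 kb). The first held 1525 ChIP and 1188 input reads, a ratio of 2.11 (interval 1.95 to 2.27), and the others had ratios of 1.88, 1.96, 1.52 and 2.39. In G. hirsutum they were D05 48480001 to 48508800 (28.8 kb), D05 48597601 to 48626200 (28.6 kb), D12 39611401 to 39635600 (24.2 kb), A05 70176401 to 70196800 (20.4 kb) and A11 98444601 to 98464400 (19.8 kb). The first held 1011 ChIP and 449 input reads, a ratio of 2.70 (2.42 to 3.03), and the others had 2.65, 2.96, 3.11 and 2.50. All 10 lay in one of the 8 blocks of their list.

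Ranked by ChIP reads in excess of scaled input, the leading members were largely the same ones. In G. barbadense 4 of the 5 were among the 5 longest, led by the 46.8 kb island of D05 with an excess of 801 reads. The fifth was D08 15930001 to 15942800 (12.8 kb, 472 ChIP and 350 input reads, ratio 2.21). In G. hirsutum 3 of the 5 were among the longest, led by the 28.8 kb island of D05 with an excess of 637 reads. The other members were near chromosome starts, A05 211401 to 226000 (14.6 kb, 836 ChIP and 319 input reads, ratio 3.14, interval 2.76 to 3.59) and A07 45801 to 55000 (9.2 kb, 735 and 229 reads, ratio 3.85, 3.32 to 4.49). With 57.3 and 79.9 ChIP reads per kb these last were far denser than the G. hirsutum median member at 27.2.

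The members of highest ratio were shorter. In G. barbadense they were A05 66599401 to 66604600 (5.2 kb, 172 ChIP and 81 input reads, ratio 3.48, interval 2.66 to 4.59), A11 80065401 to 80070800 (ratio 3.23, 2.53 to 4.14) and A09 11957601 to 11964000 (ratio 3.20, 2.53 to 4.08). In G. hirsutum, after the A07 island above, they were A06 66019001 to 66024200 (5.2 kb, 147 and 47 reads, ratio 3.75, 2.69 to 5.33) and A05 70038601 to 70047800 (9.2 kb, 307 and 100 reads, ratio 3.68, 2.93 to 4.66). For all 6, the A07 island included, the interval reaches past 4, the bound of the rule. The A05 islands of both lists and the A09 island of G. barbadense lay inside blocks shared by the lists.

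Since the 10 richest windows were picked for their member length, the lengths of their members follow from the choice, and these values are a description. In G. barbadense their median length was 7.6 kb and elsewhere 5.6 kb, and their median ratio 1.83 and elsewhere 1.53. Those of G. hirsutum had a median length of 7.6 kb and elsewhere 5.8 kb, and the median ratio 2.46 and elsewhere 1.87. Median ChIP reads per kb were 30.3 in these windows and 22.8 elsewhere in G. barbadense, and 31.7 and 27 in G. hirsutum. Median input reads per kb were 26.7 and 23.7 in G. barbadense, and 15.8 and 17.3 in G. hirsutum, so that input was denser in the windows than elsewhere in G. barbadense and sparser in G. hirsutum. Whether the ratio moves with input here was not tested.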

How the data were processed

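Reads had been handled with Trimmomatic, Bowtie2 and SICER, per the submitters' processing notes; tool versions and the assembly are not given in the sources used here. Names of both deposited lists record a window of 200 bp, a gap of 400 bp, a false discovery rate of 0.01 and the tag uniq. Neither list has a header, so the usual SICER order of columns was assumed. The authors deposited raw counts of ChIP and input reads per island, a p-value and false discovery rate, and a fold (a linear ratio of ChIP to scaled input reads). The fold equalled ChIP over input counts times 1.639 in G. barbadense and 1.204 in G. hirsutum. Only listed islands have values, so no island does not mean no CENH3.

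Members, distances and summaries were computed with Python 3.11.15, pandas 2.3.3 and scipy 1.17.1, with islands placed by their midpoints. The rule was tested on simulated data whose centres held many ChIP reads. Weak centres like those of G. hirsutum on D02 and D08 were not simulated. The number of islands the authors tested was recovered from their p-values, ranks and false discovery rates. Density used the sequence more than 5 Mb from the centre, up to the last island. Named islands were the 5 longest, the 5 with most ChIP above scaled input, the 3 of highest ratio, the 3 longest runs, and the 3 densest and sparsest chromosomes per list. Members, lists and measures were chosen with earlier results of these data known. No test was made, since each group had 1 library. Other bounds on length, ratio, input, distance and false discovery rate, the authors' fold, another centre, other neighbour distances, and leaving out chromosomes or windows were tried. Libraries were grouped by their titles. Sequence and gene annotation of the lists' assemblies were not used here.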

Additional observations from a re-analysis of the deposited data

How the results depend on the processing

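No paired analysis was possible because each group had 1 library and no result comes from a test. Results named here are the number of members, the A to D density ratio, the share of arm island length, the share with another member within 20 kb and the share in the outer 50% of the arm. At a false discovery rate of 1e-05 or lower, G. barbadense kept 279 members, which held 5.90% of the remaining arm island length, and 36.6% had a near member; G. hirsutum members held 16.8%. With islands of 8 kb or more, G. barbadense had 67 members, the A to D ratio turned to 0.924, and the shares were 1.11%, 58.2% and 10.4%; G. hirsutum had 369 members and shares of 2.20%, 16.8% and 36%. With 4 kb or more, G. barbadense had 1118 members and shares of 8.40%, 17.6% and 33%; G. hirsutum had 7425 members, an A to D ratio of 1.59, 23.8% of the length and 20.01% with a near member. These counts move because length sets membership; elsewhere the cause was not tested. A ratio below 3 moved the G. hirsutum length share to 12.9%. Input below 30 reads per kb gave 3.30% of the length and 21.6% with a near member in G. barbadense, and 12.9% of the length in G. hirsutum. Beyond 10 Mb from the centre, G. barbadense had an A to D ratio of 1.45, 3.40% of the length and 30.7% in the outer part, and G. hirsutum 13% of the length. Within 10 or 50 kb, 19.4% and 31.3% of G. barbadense members had another member, and 7.69% and 23% of G. hirsutum members. Without the 10 richest windows, added after the data were seen, G. barbadense kept 2.78% of the length, 3.82% with a near member and 31.2% in the outer part; these windows were picked for their member length. G. hirsutum kept 12.6% and 9.31%. The authors' fold, the other definition of the centre and leaving out D02 and D08 (also added after the data were seen) moved none of these values past their counting interval or, for counts, 1.5 times.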
